A study of Mus musculus with 15 samples.

Results

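The heterogeneous nuclear ribonucleoproteins (hnRNPs) are described here through 10 genes of the mouse family, Hnrnpa1, Hnrnpa2b1, Hnrnpa3, Hnrnpc, Hnrnpd, Hnrnpf, Hnrnph1, Hnrnpk, Hnrnpl and Hnrnpu, among 55536 genes of the deposited table that carried a GENCODE M21 identifier. They are a list of family members picked by name, with earlier results of these data known. All 10 had counts in all 15 libraries and passed the filter on low counts. The lowest count of any of them in a library was 58, for Hnrnpa3, and the lowest for the other members was 282, for Hnrnpd.

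hnRNPs are abundant nuclear proteins that coat newly made transcripts. Many of them bind pre-mRNA near splice sites and repress or promote the use of exons, and several also act in mRNA export, stability and translation. In T cells they are known for their part in the splicing changes that follow activation, of which the exons of CD45 are the best known case, with hnRNP L as one of the repressors. Several hnRNP genes also regulate their own mRNA, by splicing forms that are degraded by nonsense-mediated decay or kept in the nucleus with an intron.

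The cells were CD8+ T cells of OT-I mice, whose transgenic T cell receptor recognises a peptide of ovalbumin, on a Rag-deficient C57BL/6J background that leaves no other T cell receptors. In the Ag group such cells had been transferred into C57BL/6J recipients that were given the antigen with a control antibody, and in the Ag+Costim group the recipients had been given the antigen together with antibodies that trigger OX40 (CD134) and 4-1BB (CD137), both costimulatory receptors of T cells. Cells were sorted by CD8, the donor CD45 allele and the transgenic receptor chains from spleen and lymph nodes after 4 days, as the labels give it, and the Naive group came from OT-I mice without transfer or antigen. The transferred groups therefore differ from the Naive group in transfer and host as well as in antigen, and the antigen was not given without transfer. Each group held 5 libraries, mice of both sexes were recorded in each group, and the methods describe young to adult mice with 1 age range for the whole study and no age for single libraries. The libraries of a group were described as biological replicates, with as many mice as libraries, and the labels do not tie a library to a mouse, so the p-values measure the spread between these libraries.

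Total counts ran from 4865952 to 25280667 per library, and 16.9% to 53.6% of the reads were counted in genes. The CD8 T cell markers (Cd8a, Cd8b1, Cd3d, Cd3e, Cd3g, Trac) summed to 3926 to 7573 normalised counts (CPM, counts as a share of the library total, scaled by the TMM method) in every library. The library Ag 3 had the lowest total, and its B cell markers summed to 412 CPM and its erythroid markers to 706 CPM, against 25.6 to 31.6 and 28.7 to 82 CPM in the Naive group. B cell markers were also high in Ag 1 (160 CPM) and Ag 4 (214 CPM), against 29.9 and 36.1 CPM in Ag 2 and 5 and 26.9 to 48 CPM in Ag+Costim. The library Naive 5 had 594 CPM of myeloid markers against 9.8 to 110 CPM in the other Naive libraries, and 1883 CPM of dividing-cell markers (Mki67, Top2a, Ccnb1, Cdk1, Birc5) against 82.1 to 674 CPM. All Ag libraries were sequenced in lane 2 and all Naive libraries in lane 3, so lane and group cannot be told apart there, while 3 Ag+Costim libraries were in lane 2 and 2 in lane 3.

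Several members make proteins with or without a short coding segment, and these segments are printed here because the transcript results below turn on them. hnRNP B1 carries a stretch near its amino end that hnRNP A2 lacks, and both also exist without an exon of the glycine-rich domain. The protein of Hnrnpd, AUF1, comes in p37, p40, p42 and p45 forms set by a pair of optional exons. hnRNP C2 carries a short insert that hnRNP C1 lacks. In the lines below, the optional segment is in capitals and the 12 bases of mature transcript on either side are in lower case. The capitals are coding sequence from GENCODE M21 on GRCm38, printed along the transcript.
Hnrnpa2b1 exon 2, the B1 exon of 36 bases, chr6:51467391-51467426, minus strand: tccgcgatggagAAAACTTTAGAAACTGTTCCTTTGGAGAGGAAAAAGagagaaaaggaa
Hnrnpa2b1 glycine-rich domain exon, 120 bases, chr6:51464428-51464547, minus strand: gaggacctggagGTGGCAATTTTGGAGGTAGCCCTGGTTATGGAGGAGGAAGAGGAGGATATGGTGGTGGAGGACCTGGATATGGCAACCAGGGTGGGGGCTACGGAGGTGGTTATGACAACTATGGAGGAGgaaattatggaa
Hnrnpd exon 2, present in p40 and p45, 57 bases, chr5:99976534-99976590, minus strand: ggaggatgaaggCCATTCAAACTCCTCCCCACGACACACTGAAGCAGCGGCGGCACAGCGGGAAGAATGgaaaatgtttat
Hnrnpd exon of p42 and p45, 147 bases, chr5:99963731-99963877, minus strand: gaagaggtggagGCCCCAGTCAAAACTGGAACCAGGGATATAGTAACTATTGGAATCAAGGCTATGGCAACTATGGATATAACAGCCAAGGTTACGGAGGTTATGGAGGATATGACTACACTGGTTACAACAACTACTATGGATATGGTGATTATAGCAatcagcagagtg
Hnrnpc segment of C2, 39 bases, chr14:52081789-52081827, minus strand: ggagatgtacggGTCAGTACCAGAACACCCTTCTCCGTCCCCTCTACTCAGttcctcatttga

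The levels of the members were ordered per length, as TPM (transcript counts per length, scaled to the same sum in every library) computed from the deposited transcript counts and GENCODE lengths. Hnrnpa2b1 was the most abundant, with a mean of 1451 TPM over the 15 libraries, and Hnrnpk followed with 747 TPM. Hnrnpf (437 TPM) and Hnrnpc (422 TPM) came next and did not separate, since Hnrnpf was the higher of this pair in 10 of 15 libraries. Hnrnpu had 249 TPM and Hnrnpl 187 TPM. Hnrnph1 (140 TPM) and Hnrnpa1 (115 TPM) changed places between libraries, with Hnrnph1 higher in 8 of 15, and Hnrnpl was above Hnrnph1 in 12 of 15. Hnrnpd had 50.1 TPM and Hnrnpa3 11.2 TPM. The other neighbours in this order kept their places in 15 of 15 libraries. The order depends on the close copies described below, since with their counts added the means were 1238 TPM for Hnrnpf, 1087 TPM for Hnrnpk, 291 TPM for Hnrnpa1 and 144 TPM for Hnrnpa3, which places Hnrnpf above Hnrnpk, Hnrnpa1 above Hnrnpu and Hnrnpa3 above Hnrnpd.

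The first question was whether agonism of OX40 and 4-1BB moved these genes beyond antigen alone. In the comparison of Ag+Costim with Ag, 9 of 10 members had a positive log2 fold change and none passed the threshold of edgeR's quasi-likelihood test (Benjamini-Hochberg adjusted p under 0.05 over 17366 genes), which 0.0346% of all genes passed. The median log2 fold change of the members was 0.50, against −0.10 over all genes tested, of which 42.1% were above 0. At an unadjusted p under 0.05, 7 members were counted, Hnrnpa2b1, Hnrnpd, Hnrnpf, Hnrnph1, Hnrnpk, Hnrnpl and Hnrnpu, all higher in Ag+Costim, against 26.8% of all genes in either direction. DESeq2, the tool the study used, called 5 members higher (Hnrnpa2b1, Hnrnpf, Hnrnpk, Hnrnpl and Hnrnpu) and none lower. Of the 27085 genes with a DESeq2 adjusted p, 811 (2.99%) were called higher and 4743 lower. The edgeR filter left 17366 genes, so the shares of these tools are over unlike sets of genes. limma voom with sample weights called 9 members higher, all but Hnrnpa3, against 31.3% of all genes. Its sample weights were 0.0793 in Ag 5, 0.122 in Ag 2 and 0.362 in Ag 3, against 1.765 in Ag 1 and 1.502 in Ag 4. Within Ag the limma voom fit therefore rested mainly on Ag 1 and 4, in which most members were low.

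Hnrnpl (chr7:28808541-28822266, plus strand), the splicing repressor named above, had the smallest adjusted p of the members in Ag+Costim against Ag. Its normalised counts were 348, 361, 329, 425 and 356 CPM in Ag+Costim 1 to 5 and 182, 241, 283, 188 and 228 CPM in Ag 1 to 5. Every Ag+Costim library was thus above every Ag library. The log2 fold change was 0.70 (SE 0.20), 1.62-fold, with an adjusted p of 0.0815 in edgeR's test and 0.00633 in DESeq2's. Hnrnpl in the Naive group had 192, 186, 237, 215 and 392 CPM, and the last of these, Naive 5, lay within the Ag+Costim range.

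Hnrnpk (chr13:58391142-58403343, minus strand) codes for a protein with KH domains that binds cytosine-rich RNA and DNA. It had 1520, 1437, 1408, 1691 and 1572 CPM in Ag+Costim and 857, 1243, 1122, 942 and 1285 CPM in Ag. The groups did not overlap, and the highest Ag value stood at 1285 CPM against a lowest Ag+Costim value of 1408 CPM. The log2 fold change was 0.49 (SE 0.15; edgeR adjusted p = 0.0849, DESeq2 adjusted p = 0.0110). Naive libraries had 806, 980, 1122, 840 and 1278 CPM, in the same range as Ag.

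Hnrnpa2b1 (chr6:51460932-51469894, minus strand), which codes for the A2 and B1 proteins that bind UAG-containing RNA and also sort RNA for transport, was the third member without overlap. It had 2112, 2049, 2131, 2383 and 2254 CPM in Ag+Costim. In Ag it had 797, 1868, 1606, 899 and 1575 CPM, so Ag 2, 3 and 5 lay nearer to Ag+Costim than Ag 1 and 4 did. The log2 fold change was 0.70 (SE 0.23; edgeR adjusted p = 0.0906, DESeq2 adjusted p = 0.0147). These 3 members, of 10, were without overlap and higher in Ag+Costim, against 4.23% of all genes.

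The remaining members overlapped between the groups in CPM, while per length Hnrnpf did not, with 443 to 583 TPM in Ag+Costim against 295 to 436 TPM in Ag. Hnrnpf and Hnrnph1, related proteins that bind guanine-rich runs, had 570 to 684 and 178 to 231 CPM in Ag+Costim against 375 to 586 and 124 to 204 CPM in Ag, with log2 fold changes of 0.38 (SE 0.14) and 0.35 (SE 0.15). Hnrnpu, a large nuclear matrix protein also called SAF-A, had 1108 to 1386 CPM against 601 to 1187 CPM. Hnrnpd, which binds AU-rich elements of short-lived mRNAs, had 62 to 100 CPM against 30.1 to 67.4 CPM. For Hnrnpu the log2 fold change was 0.52 (SE 0.21), and for Hnrnpd 0.72 (SE 0.33). Hnrnpa1, a splicing repressor of the A/B group, had 183, 171, 173, 243 and 206 CPM against 54.8, 196, 127, 57 and 177 CPM, which places Ag 2 and 5 within the Ag+Costim range. Hnrnpc, which binds uridine runs, showed the smallest difference, 0.20 (SE 0.16), since Ag 2 and 5 had 605 and 621 CPM and the Ag+Costim libraries 508 to 631 CPM.

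**Figure D1:**
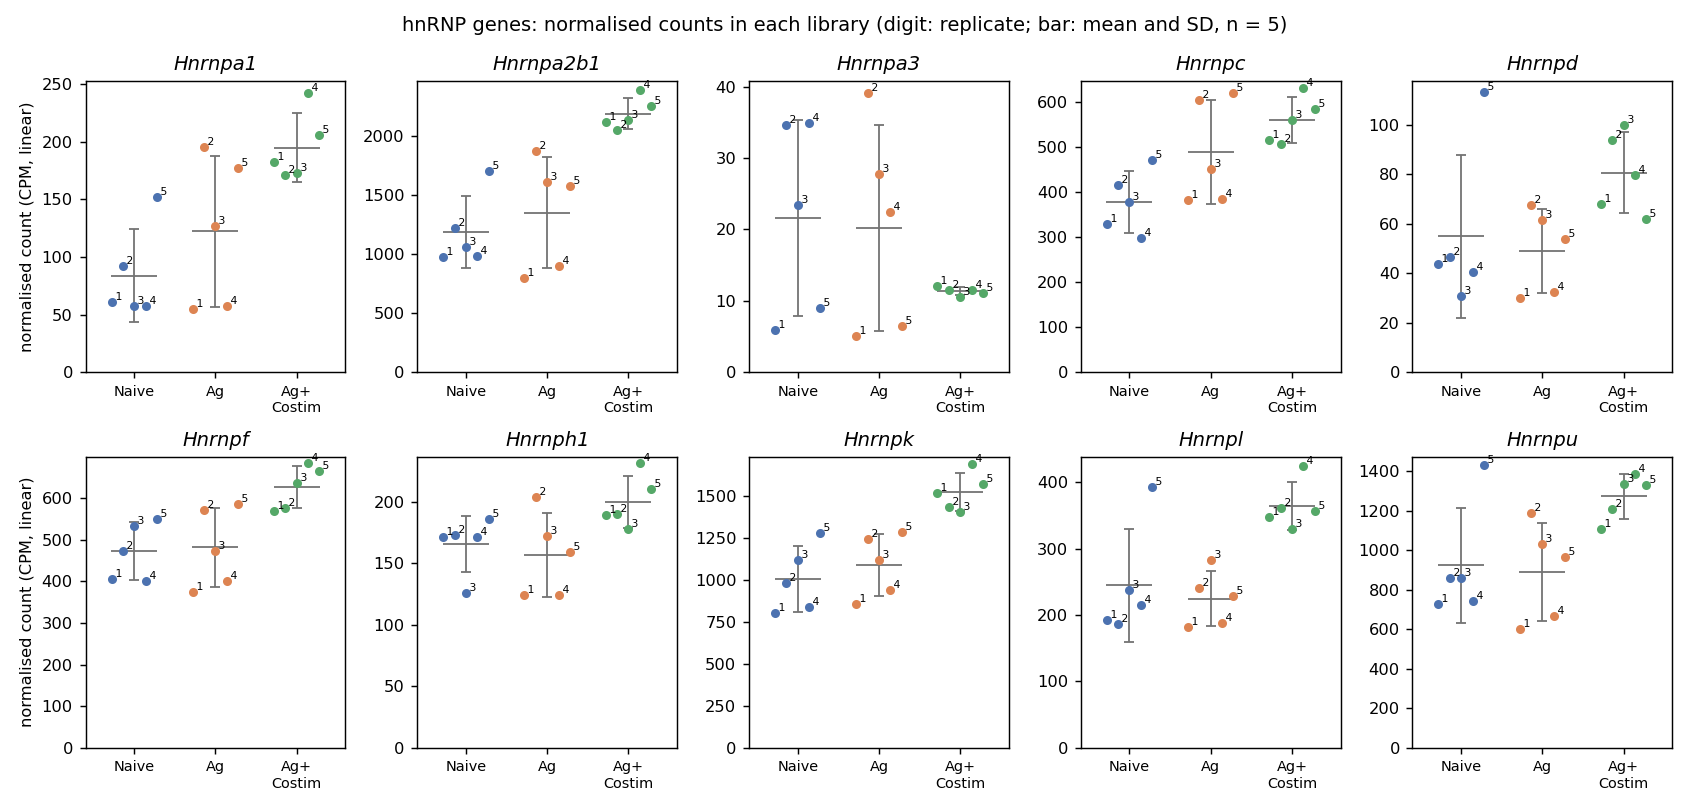
Normalised counts (CPM, linear axis from 0) of each hnRNP gene in the 15 libraries; points are libraries, digits are replicate numbers, and grey bars give the mean and SD of 5 libraries. Hnrnpa2b1, Hnrnpk and Hnrnpl have every Ag+Costim library above every Ag library, Ag 1 and Ag 4 lie low for most members, and Naive 5 lies high for most.

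The count in this comparison rested on few Ag libraries. Without Ag 2 edgeR called 6 members (Hnrnpa2b1, Hnrnpf, Hnrnph1, Hnrnpk, Hnrnpl and Hnrnpu), all higher, against 5.33% of all genes called higher. Without Ag 5 it called 4 (Hnrnpa2b1, Hnrnpf, Hnrnpk and Hnrnpl) against 4.17%, and without Ag 3 and Naive 5 together 2 (Hnrnpa2b1 and Hnrnpl) against 2.88%. Ag 2 and 5 differed from the other Ag libraries in preparation, with input amounts of 1.4 and 1.8 in the library table (its unit is not given) against 9.4 to 10 in the other Ag and in all Ag+Costim libraries, and with 21705 and 20949 genes that had a count against 31845 to 44408 in Ag 1, 3 and 4 and 23891 to 25410 in Ag+Costim. The part of input in these counts was not tested. Within lane 2, with 3 Ag+Costim libraries against the 5 of Ag, edgeR called no member and 0 of 16920 genes in all. At an unadjusted p under 0.05 there were 3 members, against 1185 of 16920 genes. The log2 fold changes there were 0.64 for Hnrnpl, 0.65 for Hnrnpa2b1 and 0.43 for Hnrnpk.

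The position of a library followed the same order for most members. The mean of the members' standardised log2 CPM was −1.45 in Ag 1 and −1.05 in Ag 4, against 0.65, 0.11 and 0.09 in Ag 2, 3 and 5. It ran from 0.57 to 1.16 in Ag+Costim, and in the Naive group it was −1.05, −0.34, −0.63 and −0.81 in replicates 1 to 4 and 0.55 in Naive 5. The 5 dividing-cell markers moved with it. B cell markers were higher in Ag 1 and 4 than in Ag 2 and 5, as given above, and their part was not tested. Dividing-cell markers summed to 444 and 436 CPM in Ag 1 and 4 and to 2449, 1849 and 2397 CPM in Ag 2, 3 and 5, to 2343 to 2809 CPM in Ag+Costim, and to 82.1 to 674 CPM in Naive 1 to 4. The part of cell division, or of the share of dividing cells, in the hnRNP differences was not tested. In bulk RNA of sorted cells, more expressing cells and more RNA per cell cannot be told apart.

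**Figure D2:**
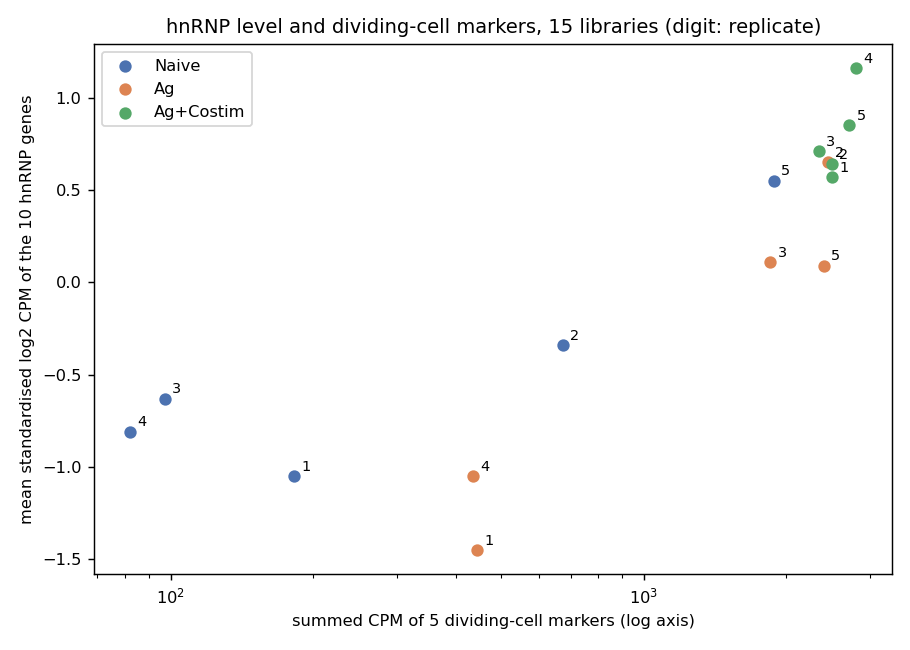
Mean standardised log2 CPM of the 10 hnRNP genes (y axis, SD units) against the summed CPM of 5 dividing-cell markers (x axis, log scale), 1 point per library, with replicate digits. Naive 1 to 4 and Ag 1 and 4 lie at the lower left, and the Ag+Costim libraries lie at the upper right together with Ag 2 and Naive 5.

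The second comparison, Ag with Naive, asked what the transfer and antigen did without costimulation. None of the 10 members was called by edgeR, against 6.71% of all genes, and the signs were split, with 5 above and 5 below 0 and a median log2 fold change of −0.01 (0.08 over all genes). At an unadjusted p under 0.05 there was 1 member, Hnrnpc, against 28.7% of all genes, and DESeq2 called none. No member was without overlap, against 3.85% of all genes in either direction. Hnrnpc had 383, 605, 452, 386 and 621 CPM in Ag and 329, 416, 379, 299 and 471 CPM in Naive, a log2 fold change of 0.37 (SE 0.17; edgeR adjusted p = 0.159). Hnrnpa1 had the largest difference, 0.54, with an SE of 0.37. Without Ag 3 and Naive 5 together, Hnrnpc was called higher, and it was then the only member called, against 15.2% of all genes called higher. Of 5 B cell markers tested, 4 were higher in Ag than in Naive, with sums of 29.9 to 412 CPM against 25.6 to 31.6 CPM, and their part in the member values was not tested.

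The third comparison, Ag+Costim with Naive, gave calls. Of the 10 members, 6 rose (Hnrnpa1, Hnrnpa2b1, Hnrnpc, Hnrnpf, Hnrnpk and Hnrnpl) and none fell, against 21.0% of all genes called higher and 44.7% called in either direction by edgeR. The median log2 fold change of the members was 0.56, against −0.08 over all genes. Unadjusted p-values under 0.05 were found for 7 members, the 6 called and Hnrnpu, against 55.7% of all genes. DESeq2 called 6 members higher, the same 6, against 16.1% of its 24262 genes called higher and 5449 called lower. With library totals in place of TMM scaling the median of all genes moved by −0.15, and Hnrnpa1, Hnrnpa2b1, Hnrnpc, Hnrnpf, Hnrnpk and Hnrnpl kept positive log2 fold changes, of which Hnrnpf and Hnrnpl no longer passed (edgeR adjusted p = 0.0622 and 0.0509). All 5 dividing-cell markers were also higher in Ag+Costim than in Naive and 3 of 6 CD8 T cell markers lower. The libraries differed as well, with 51.9 to 52.7% of reads counted and 23891 to 25410 genes with a count in Ag+Costim against 38.2 to 46.8% and 30152 to 33853 genes in Naive. The part of these markers and library measures in the member values, and in the transcript shares below, was not tested. This comparison shares its Ag+Costim libraries with the first and its Naive libraries with the second.

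Hnrnpa1 (chr15:103240432-103246692, plus strand) rose most, from 61.2, 92, 57.3, 57 and 152 CPM in Naive to 171 to 243 CPM in Ag+Costim. Its groups did not overlap. The log2 fold change was 1.22 (SE 0.37; edgeR adjusted p = 0.0206). Hnrnpa2b1 rose 1.84-fold from 977, 1217, 1055, 982 and 1704 CPM, a log2 fold change of 0.88 (SE 0.23; adjusted p = 0.0120). Hnrnpa1 and Hnrnpa2b1 thus had the largest changes among the members called. Hnrnpa3, which was not called, had a log2 fold change of −0.93 (SE 0.55).

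Hnrnpk rose by a log2 fold change of 0.60 (SE 0.15; edgeR adjusted p = 0.0102), Hnrnpc by 0.56 (SE 0.17; adjusted p = 0.0181) and Hnrnpf by 0.41 (SE 0.14; adjusted p = 0.0358), and none of them overlapped between the groups, though Hnrnpf did per length, with 443 to 583 TPM against 350 to 551 TPM. Hnrnpl rose by 0.57 (SE 0.19; adjusted p = 0.0306) with overlap, because Naive 5 had 392 CPM. In all, 5 members were without overlap and higher, against 22.7% of all genes. Hnrnpd, Hnrnph1 and Hnrnpu did not pass, at 0.56 (SE 0.33), 0.27 (SE 0.15) and 0.46 (SE 0.21). Naive 5 was again the highest Naive library for each of them, with 113 CPM of Hnrnpd and 1433 CPM of Hnrnpu against at most 46.4 and 860 CPM in the other Naive libraries. Without Naive 5, 8 members were called higher, all but Hnrnpa3 and Hnrnph1, against 25.6% of all genes. Without Naive 1, and likewise without Naive 4, only Hnrnpa2b1 and Hnrnpk were called, against 8.04% and 7.84% of all genes called higher.

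Within lane 3, with 2 Ag+Costim libraries against the 5 of Naive, 4 members were called higher than Naive (Hnrnpa1, Hnrnpa2b1, Hnrnpc and Hnrnpk), against 14.1% of all genes, with log2 fold changes of 1.44, 0.97, 0.69 and 0.70. With lane as a term in the fit of all libraries no member was called, against 1.49% of all genes called higher. At an unadjusted p under 0.05 there were 6 members, against 7091 of 17366 genes. The edgeR adjusted p-values were 0.0517 for Hnrnpk, 0.0586 for Hnrnpa2b1 and 0.0601 for Hnrnpc. The log2 fold changes in that fit were 0.70, 0.97 and 0.68.

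**Figure D3:**
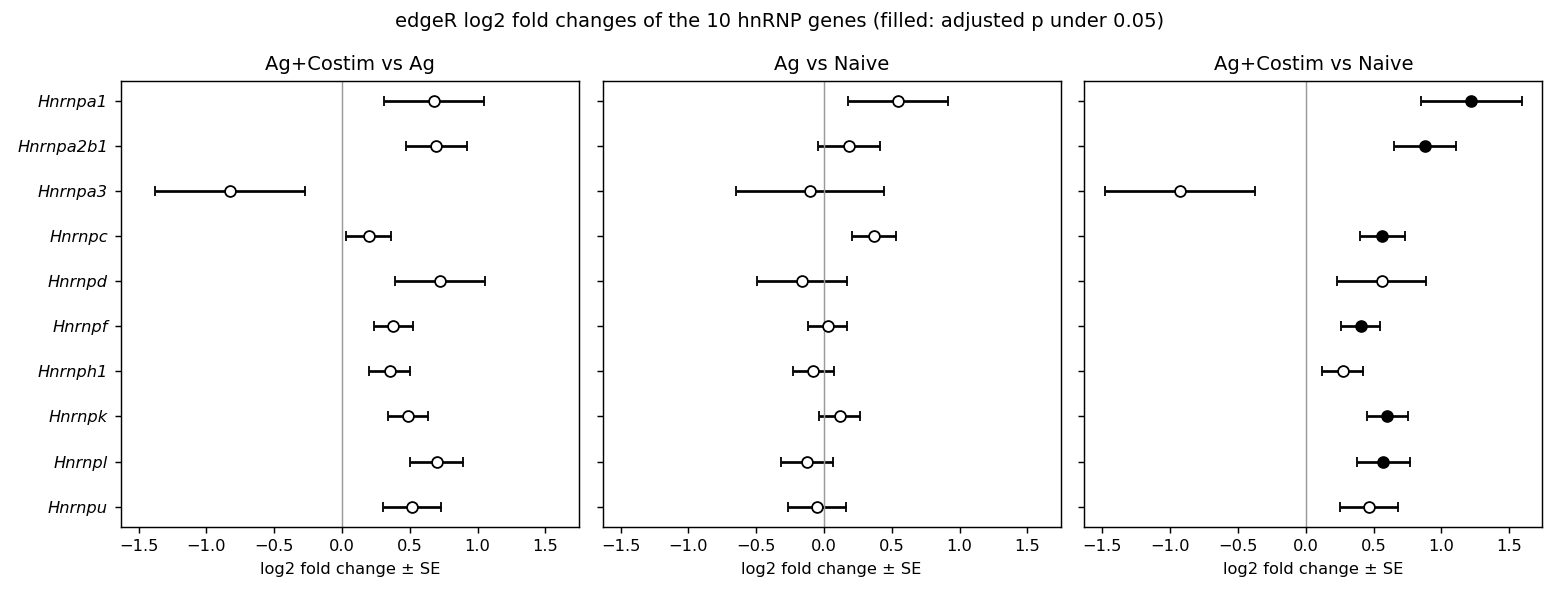
edgeR log2 fold change (x axis) with its SE for each hnRNP gene in the 3 comparisons; filled points have an adjusted p under 0.05 over all genes. The 6 filled points, Hnrnpa1, Hnrnpa2b1, Hnrnpc, Hnrnpf, Hnrnpk and Hnrnpl, are all in Ag+Costim vs Naive, and Hnrnpa3 is the only member left of 0 in both comparisons of Ag+Costim.

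Hnrnpa3 (chr2:75659261-75669407, plus strand) stood apart from the other members. Its normalised counts were 12.1, 11.5, 10.5, 11.5 and 11.1 CPM in Ag+Costim, 4.99, 39.1, 27.7, 22.5 and 6.51 CPM in Ag, and 5.96, 34.6, 23.4, 34.9 and 8.97 CPM in Naive. The Ag and Naive libraries fell into a low set and a high set, and all Ag+Costim libraries lay between them. The log2 fold changes of Ag+Costim were −0.82 (SE 0.55) against Ag and −0.93 (SE 0.55) against Naive, and neither passed edgeR's test (adjusted p = 0.348 and 0.171).

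The high and low sets of Hnrnpa3 matched the transcript to which the counts had been given. In Naive 2, 3 and 4 and Ag 2, 3 and 4, between 91.1% and 100% of the counts were on Hnrnpa3-203, of 5150 bases, and none on Hnrnpa3-204, of 1654 bases. In the other 9 libraries none were on Hnrnpa3-203, and Hnrnpa3-204 held 79.6% or more. Both are protein coding, with coding lengths of 1071 and 1137 bases. Per length, the level was 5.22 to 18 TPM over all libraries, with 9.29 to 13.6 TPM in Ag+Costim, 5.22 to 14.7 TPM in Ag and 7.97 to 18 TPM in Naive.

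Most reads that resemble Hnrnpa3 were counted elsewhere. A search of the coding sequence against all GENCODE M21 transcripts found 35 close copies at other loci (at least 90% identity over at least 50% of the coding sequence), and these held 85.4% of the counts of Hnrnpa3 and its copies together. The copies summed to 133 to 146 CPM in Ag+Costim, 59.5 to 124 CPM in Ag and 68.3 to 125 CPM in Naive. With the copies added, the log2 fold change of Hnrnpa3 turned positive, to 0.45 (SE 0.23; edgeR adjusted p = 0.217) against Ag and 0.51 (SE 0.23; adjusted p = 0.0747) against Naive. The direction for this gene therefore differed with and without its copies. Per length and without copies, its mean was 12.2 TPM in Ag+Costim, 8.89 TPM in Ag and 12.6 TPM in Naive. The part of the division of reads between the gene and its copies was not tested.

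**Figure D4:**
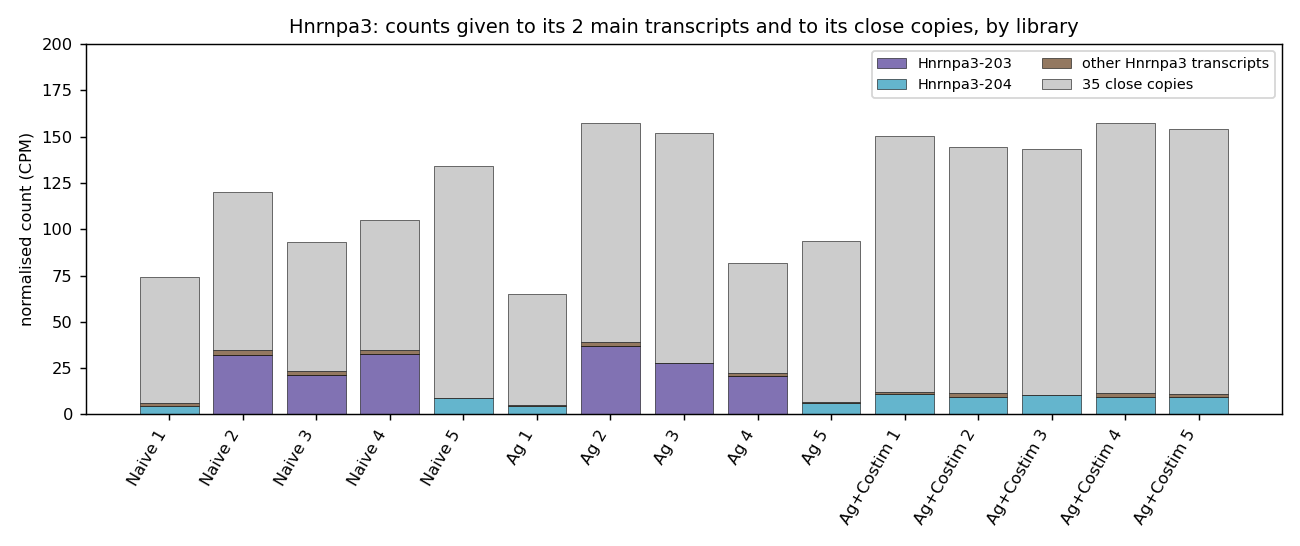
Normalised counts (CPM, y axis from 0) given to Hnrnpa3-203, Hnrnpa3-204, other Hnrnpa3 transcripts and 35 close copies, stacked for each library. The 6 libraries with counts on Hnrnpa3-203 have 22.5 to 39.1 CPM on the gene and the other 9 have 4.99 to 12.1 CPM, while the copies hold 59.5 to 146 CPM in all libraries.

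Other members had copies too, without a turn of sign in the comparisons of Ag+Costim. Hnrnpf had 7 copies with 56.5% of the joint counts, Hnrnpa1 16 with 44.8%, Hnrnpk 2 with 19%, Hnrnpc 1 with 11.4% and Hnrnpa2b1 1 with 1.01%. None was found for Hnrnpd, Hnrnph1, Hnrnpl and Hnrnpu. For Hnrnpa1 the share in copies ran from 42.1% to 46.3% over the 15 libraries, and for Hnrnpf from 55.6% to 57.3%, so it varied little between libraries. With the copies added, the same 6 members were called in Ag+Costim against Naive and none in the other comparisons.

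The counts were also given per transcript. Of 133 annotated transcripts of the members, 42 reached a mean share of 5% of their gene's counts in at least 1 group, and of these 31 were protein coding, 5 processed transcripts without a reading frame, 4 targets of nonsense-mediated decay and 2 retained introns. Shares come from short reads divided between overlapping transcripts by StringTie and are estimates. No member was called for a change in transcript usage (edgeR's diffSpliceDGE with a change of at least 10 percentage points), and all 10 were tested. The same rule called 0.907% of 7501 genes in Ag+Costim against Ag, 0.533% in Ag against Naive and 0.973% in Ag+Costim against Naive. At an unadjusted gene-level p under 0.05 there were 3, 2 and 4 members, against 647, 444 and 996 genes. Without the limit on the size of the change, Hnrnpa1 had an edgeR gene-level adjusted p of 0.0322 in Ag+Costim against Ag and 0.0481 in Ag against Naive, through Hnrnpa1-205, whose share differed by 2.78 and −1.84 percentage points. Single transcripts of Hnrnpk also had an adjusted p under 0.05, Hnrnpk-205 in Ag against Naive (6 points, adjusted p = 0.0278) and Hnrnpk-215 in Ag+Costim against Ag (−0.269 points, adjusted p = 0.0463). These 3 transcripts were named after their values were seen. Under the same rule limma's diffSplice called 632 of 7501 genes in Ag+Costim against Naive, and 1 member, Hnrnpa2b1. Without the limit on size, Hnrnpk, Hnrnpl and Hnrnpu also had a gene-level adjusted p under 0.05 there (limma diffSplice, 0.00190, 0.0199 and 0.00461). No count over all genes is given for that. At an unadjusted gene-level p under 0.05, limma diffSplice had 6 members there, against 2514 of 7501 genes.

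Hnrnpa2b1-203, the coding transcript with the B1 exon printed above, held 30.9, 41.6, 26.9, 24.7 and 29.7% of Hnrnpa2b1 counts in Ag+Costim. In Naive the share of this transcript was 23.1, 19.7, 11.1, 11.7 and 22.2%, and in Ag 16.7, 28.3, 51.3, 17.8 and 25.6%. The Ag+Costim libraries were all above the Naive ones, and the Ag libraries spanned both. The difference from Naive was 13.2 percentage points, with an adjusted p of 0.797 in edgeR's diffSpliceDGE and 0.00068 in limma's diffSplice. Hnrnpa2b1-204, which lacks the B1 exon and has the glycine-rich one, held 25.3% ± 5.61 in Ag+Costim, 24.7% ± 6.92 in Ag, 24.9% ± 3.53 in Naive (SD, n = 5 each). Among coding counts alone, exon 2 was included at 32.3% ± 7.05 (SD, n = 5) in Ag+Costim, 30.3% ± 14.7 in Ag and 20.3% ± 6.2 in Naive. On this measure Ag+Costim and Naive overlapped, with 25.6% in Ag+Costim 4 and 27.9% in Naive 1. The exact permutation test gave p = 0.0159 against Naive, and 0.286 after Benjamini-Hochberg adjustment over 18 tests of exon choice. Those tests were added after the data had been seen.

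The glycine-rich exon of Hnrnpa2b1 was included in 64.9% ± 4.77 of coding counts in Ag+Costim, 63.8% ± 8.46 in Ag and 60.9% ± 2.09 in Naive (SD, n = 5 each). Exon 2 of Hnrnpd was included in 33.7% ± 5.45, 31.8% ± 22.5 and 38.5% ± 16.2, and the exon of p42 and p45 in 71.5% ± 4.38, 72.9% ± 6.75 and 64.4% ± 7.89. The C2 segment of Hnrnpc was included in 26.2% ± 8.29, 18.9% ± 7.76 and 29.5% ± 11.6. No exact two-sided permutation test among the 18 gave an adjusted p under 0.286, where the smallest unadjusted p that 5 against 5 libraries allow is 0.00794.

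By these shares, A2 and C1 mRNA outweighed B1 and C2 mRNA in each group's mean. For AUF1, Hnrnpd-203, which codes for p42, had the highest mean share in each group, with 54 to 66.1% of Hnrnpd counts in Ag+Costim, 26.8 to 65.6% in Ag and 30.8 to 48.9% in Naive. In Ag 1 and 2 Hnrnpd-211 was above it, with 33.1 and 34.3% against 29.1 and 26.8%. The p37 transcript Hnrnpd-202 held 5.54% ± 4.63 in Ag+Costim against 16.1% ± 6.15 in Ag and 15.3% ± 7.53 in Naive (SD, n = 5 each), the p40 transcript Hnrnpd-201 22.1% ± 5.40, 9.07% ± 11.1 and 17.2% ± 14.2, and the p45 transcript Hnrnpd-211 10.6% ± 4.31, 20.3% ± 13.2 and 18% ± 9.08. None of these passed the usage test. The p40 transcript was listed at 0 in Naive 4 and Ag 3 and held 0.221% in Ag 4.

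Hnrnph1 had the largest shift of mean share apart from Hnrnpa3. Hnrnph1-202 held 0.771, 26.2, 47.3, 73.8 and 42.4% in Ag+Costim, 2.72, 9.09, 36.1, 40.9 and 21.7% in Ag and 2.92, 10.9, 1.01, 16.2 and 0.787% in Naive. The first Ag+Costim library had the lowest value of all 15. The difference from Naive was 31.7 percentage points (edgeR diffSpliceDGE unadjusted p = 0.00150, adjusted p = 0.117, limma diffSplice adjusted p = 0.0261). Hnrnph1-201, with a coding length of 1347 bases against 1416 in Hnrnph1-202, held 29.2% ± 17 in Ag+Costim, 49.7% ± 22.8 in Ag and 34.4% ± 25.2 in Naive (SD, n = 5 each). The processed transcript Hnrnph1-204 held 8.86% ± 4.63 in Ag+Costim, 6.73% ± 5.38 in Ag, 21.7% ± 12.2 in Naive (SD, n = 5 each). All processed transcripts, which have no reading frame, held 7.02 to 84.9% of Hnrnph1 counts across libraries, with 84.9, 30.8, 62.4, 78.5 and 38.7% in Naive, 36, 25.5, 37.1, 29.5 and 7.02% in Ag and 69.2, 20.6, 18.7, 19.3 and 33.4% in Ag+Costim.

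The leading transcripts of the other members are given by their group means, and none of them passed edgeR's usage test. In limma's diffSplice, Hnrnpl-211 and Hnrnpu-201 had adjusted p-values of 0.0120 and 0.00372 in Ag+Costim against Naive. Their mean shares differed by 8.7 and 0.3 percentage points, under the limit of 10. Hnrnpl-211 held 87.8% ± 1.30 of Hnrnpl counts in Ag+Costim, 84.8% ± 2.81 in Ag and 79.1% ± 5.35 in Naive, and Hnrnpl-209 6.49% ± 1.06, 6.31% ± 1.18 and 7.11% ± 1.84 (SD, n = 5 each). Hnrnpk-201 held 56.7% ± 4.44, 49.0% ± 20.1 and 56.1% ± 8.44, and Hnrnpk-216, with a coding length of 1320 bases against 1389 in Hnrnpk-201, 22.3% ± 3.31, 23.4% ± 7.86 and 19.0% ± 7.33. Hnrnpf-203 and Hnrnpf-202, which have the same coding length, held 44.1% ± 16.9 and 27.4% ± 13.1 in Ag+Costim, 46.7% ± 10.5 and 26.7% ± 7.91 in Ag, and 37.8% ± 8.16 and 33.2% ± 5.06 in Naive. Hnrnpc-207 held 41.4% ± 8.27, 43.9% ± 12.6 and 31.4% ± 9.76, Hnrnpc-206 23.6% ± 3.05, 25.0% ± 11.0 and 22.7% ± 7.46, and Hnrnpc-209, a C2 form, 23.3% ± 8.93, 13% ± 12.6 and 22.3% ± 15.7. Hnrnpu-201 held 98.1% or more of Hnrnpu counts in 4 of 5 Ag+Costim libraries and 67.2% in Ag+Costim 2, where Hnrnpu-206, a nonsense-mediated decay transcript, held 31.5%. Ag 3 had the same pattern, with 63.7% and 34.9%.

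Transcripts marked for decay or with a retained intron took a larger part of several members' counts in Naive than in Ag+Costim. For Hnrnpa1 the decay transcripts held 46.8, 30.8, 29.5, 51.4 and 26.3% in Naive, 29.2, 19.2, 8.76, 24.7 and 10.6% in Ag and 19.2, 8.06, 8.72, 17.7 and 13.9% in Ag+Costim. Every Naive library was above every Ag+Costim library. Most of this was Hnrnpa1-203, which held 29.1% ± 15.3 in Naive and 9.85% ± 4.28 in Ag+Costim (SD, n = 5 each), with an edgeR diffSpliceDGE adjusted p of 0.972, while the coding Hnrnpa1-202 held 55.7% ± 7.62 and 72.8% ± 11.3.

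For Hnrnpa2b1 the decay and retained-intron transcripts together held 17.4, 10.1, 15.7, 21.2 and 7.03% in Naive, 12.9, 5.05, 7.42, 13.2 and 4.2% in Ag and 5.20, 5.34, 4.58, 3.67 and 4.26% in Ag+Costim. For Hnrnpl the retained-intron transcripts held 16.8, 11.3, 12.2, 17.1 and 6.36% in Naive, 12.8, 6.87, 7.39, 11.4 and 5.83% in Ag and 6.32, 6.19, 5.11, 4.55 and 6.07% in Ag+Costim. Ag 1 and 4 were the Ag libraries with the higher shares in both genes, and Naive 5 the Naive library with the lowest. Hnrnpd showed 13.7, 5.78, 12, 12.2 and 3.24% in Naive, 15.4, 2.76, 6.74, 7.06 and 5.13% in Ag and 1.82 to 4.43% in Ag+Costim. No tested transcript of these classes in Hnrnpa2b1, Hnrnpl or Hnrnpd passed edgeR's diffSpliceDGE in Ag+Costim against Naive. In limma's diffSplice Hnrnpa2b1-211 and Hnrnpl-206 passed, with adjusted p-values of 0.0146 and 0.0272. Both are retained-intron transcripts and were named after their values were seen.

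All other genes as a whole had the same order of groups. Transcripts of these classes held 12, 9.13, 10, 12 and 6.43% of their counts in Naive, 9.46, 5.71, 7.64, 9.05 and 5.06% in Ag and 5.13 to 6.28% in Ag+Costim. Every Ag+Costim library thus lay below every Naive library for the other genes too. The share of single genes without such overlap is not given here. Not all members shared this order of groups, since the retained-intron share of Hnrnpa3 was 8.66% ± 7.41 in Naive and 11.5% ± 6.92 in Ag+Costim (SD, n = 5 each). Decay transcripts held a mean of 2.37% of the summed counts of the 10 members in both groups. In Ag+Costim that mean included 6.91% in Ag+Costim 2. The other Ag+Costim libraries had 1.16 to 1.34%, and the Naive libraries 1.55 to 3.27%. Over the 10 members the unweighted mean share, to which the processed transcripts of Hnrnph1 contribute most in Naive (59% of that gene), was 24.1, 11.4, 16.4, 22.5 and 9.36% in Naive, 14.6, 7.52, 11.8, 11.1 and 3.85% in Ag and 4.52 to 12.8% in Ag+Costim. With the counts of the 10 members summed first, these classes held 13.7, 6.61, 8.07, 13.9 and 4.71% in Naive, 8.12, 3.79, 11.6, 6.48 and 2.34% in Ag and 5.05, 9.12, 2.74, 2.89 and 3.55% in Ag+Costim, and the groups overlapped. The part of this shift over all genes in the members' shares was not tested. Hnrnpf had no transcript of these classes among its counts, and Hnrnpc and Hnrnpk had at most 0.176% and 2.96% in any library.

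**Figure D5:**
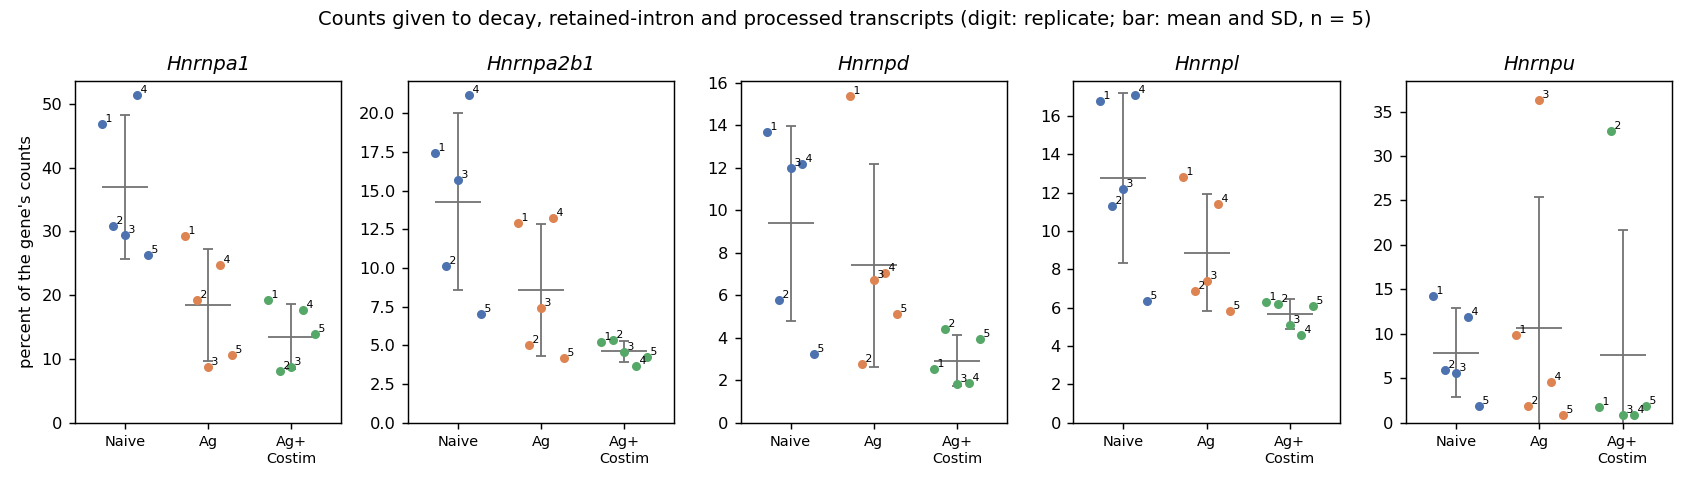
Percent of each gene's counts given to nonsense-mediated decay, retained-intron and processed transcripts (y axis from 0) in 5 hnRNP genes; points are libraries, digits are replicate numbers, and grey bars give the mean and SD of 5 libraries. In Hnrnpa1, Hnrnpa2b1 and Hnrnpl all Ag+Costim libraries lie below all Naive libraries, while Hnrnpu has single high values in Ag 3 and Ag+Costim 2.

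The members were compared with 17 other hnRNP genes and with 13 genes of the SR family, the serine- and arginine-rich splicing factors that often act against hnRNPs. In Ag+Costim against Ag the other hnRNP genes had a median log2 fold change of 0.42 with 16 of 17 above 0, and the SR genes 0.42 with 12 of 13 above 0. None of either list was called by edgeR there (9 and 6 at an unadjusted p under 0.05), while DESeq2 called 5 and 6 higher. In Ag against Naive the medians were −0.02 and −0.16, with no other hnRNP gene called (4 at an unadjusted p under 0.05, and 2 lower by DESeq2) and 1 SR gene lower. In Ag+Costim against Naive 7 of 17 other hnRNP genes rose and none fell, with a median of 0.37, and 5 of 13 SR genes rose and 1 fell, with a median of 0.51. The direction seen in the 10 members was therefore present in both lists, and no test of a difference between lists was run.

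Among the 17, the largest changes in Ag+Costim against Naive were in Raly, a relative of hnRNP C, with a log2 fold change of 1.51 (SE 0.20; edgeR adjusted p = 0.00100). It had 149 to 208 CPM in Ag+Costim, 62.2 to 110 CPM in Ag and 43.1 to 92.6 CPM in Naive. Hnrnpll, which represses the variable exons of CD45 in activated T cells, rose by 1.22 (SE 0.29; adjusted p = 0.00893), with 130 to 155 CPM in Ag+Costim against 36.3 to 118 CPM in Naive. Ptbp1, the polypyrimidine tract binding protein, rose by 0.74 (SE 0.25; adjusted p = 0.0326) and Hnrnpm by 0.70 (SE 0.16; adjusted p = 0.00692).

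Over the 15 libraries the members apart from Hnrnpa3 went together. The closest pair was Hnrnpa1 and Hnrnpa2b1, with Pearson's r = 0.97 for log2 CPM. Hnrnpf and Hnrnpk, and Hnrnpu and Hnrnpa2b1, each reached 0.95. Hnrnpc was most like Hnrnpa1 (0.93), Hnrnpd and Hnrnpl were each most like Hnrnpu (0.91), and Hnrnph1 was most like Hnrnpa2b1 (0.83). Hnrnpa3 reached at most 0.04 with any other member. Among the 11341 genes with a mean of at least 5 CPM, members left out, the genes closest to the members' mean were Sephs2 (r = 0.986), Gm5778 (0.986), Gm15790 (0.985), Gm5641 (0.983) and Hspa4 (0.983). Gm5778 is the close copy of Hnrnpa2b1 counted above and Gm5641 is one of the copies of Hnrnpa3. These values describe 15 libraries in 3 groups that share depth and composition, so they carry no test.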

How the data were processed

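RNA of sorted CD8+ T cells was amplified with SMART-Seq v4 and sequenced, with no strand recorded. The deposited library table lists shorter reads than the methods describe. Per the labels and the submitters' processing notes, the authors aligned reads to mm10 with HISAT2 2.1.0, used SAMtools 1.9 and StringTie 2.1.0, and deposited estimated counts per gene and per transcript, whole numbers derived from coverage, with no normalisation. The authors tested with DESeq2 1.30.1 in R 4.0.5. The annotation release is not given in the sources used here. Identifiers matched GENCODE M21 for 55536 of 81881 gene entries and 141862 of 168207 transcript entries, and 26248 entries named by a number alone (0.0818% of counts) and 97 spike-in entries were left out. Read counts per library and alignment percentages were deposited by the authors in a library table, and the percent of reads counted was computed here as total counts over sequenced reads. The 15 columns of a deposited FPKM table were not used.

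Total counts were 4865952 to 25280667 per library, with the lowest total in Ag 3. limma voom's sample weights were lowest in Ag 5 (0.0793), Ag 2 (0.122) and Naive 5 (0.196), against 0.362 in Ag 3. Genes were filtered with filterByExpr, scaled by TMM and fitted over all 15 libraries with edgeR 4.0.16 in R 4.3.3 (quasi-likelihood test, group as the only term, Benjamini-Hochberg adjusted p under 0.05 over 17366 genes). Groups followed the labels. Transcript usage was tested with diffSpliceDGE in 7501 genes, with a call also needing a share change of at least 10 percentage points. Exon choice was tested with exact two-sided permutation tests over all divisions of the libraries. The adjustment includes 1 segment that is not reported here. On simulated data the gene test recovered nearly all large fold changes but few as small as most of those of the members, and the usage test made more false calls than its threshold allows. Alternatives were DESeq2 1.42.0, limma 3.58.1 (voom with sample weights, diffSplice), other scaling and filters, lane, a replicate block, libraries left out and close copies added.

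Pairs of same-numbered libraries deviated together in part (r over 0.1 in 1 of 5 pairs for Ag+Costim against Ag, 3 of 5 for Ag against Naive and 1 of 5 for Ag+Costim against Naive, from −0.324 to 0.47), so no block was used. The recorded sex follows the replicate number in all groups. All 10 members were named. Of 17 other hnRNP genes at most the 4 with the largest change past the threshold were named in each comparison, with counts only for 13 SR genes, and of transcripts the 2 leading per member and those with a mean share change of at least 10 percentage points. The 5 genes most like the members were named by Pearson's r. Members and lists were chosen with earlier results of these data known.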

Additional observations from a re-analysis of the deposited data

Results flagged for a closer look

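Among 102 groups of 5 libraries tested for a value far from the others (Dixon's test, critical value 0.71), 12 values stood apart, where chance gives about 1 in 20 groups. That rate cannot be set against the 12, because shares of transcripts of the same gene depend on each other, as for Hnrnpu-201 and Hnrnpu-206. Hnrnpu-206 was also 0 in all other Naive and Ag+Costim libraries, where any value above 0 is flagged. In the Naive group, Naive 5 stood high for Hnrnpd at 113 CPM (others 30.7 to 46.4), Hnrnpl at 392 CPM (others 186 to 237) and Hnrnpu at 1433 CPM (others 727 to 860), and Naive 3 stood low for Hnrnph1 at 126 CPM (others 171 to 186).

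For transcript shares, Ag+Costim 2 stood apart for Hnrnpa2b1-204 at 15.7% (others 26.2 to 30.2%), Hnrnpf-203 at 73.2% (others 31.3 to 43.2%), Hnrnpu-201 at 67.2% (others 98.1 to 99.1%) and Hnrnpu-206 at 31.5% (others 0). Ag+Costim 1 stood apart for Hnrnpd-202 at 13.3% (others 1.91 to 5.18%). Ag 3 stood apart for Hnrnpu-201 at 63.7% (others 90.2 to 99.1%) and Hnrnpu-206 at 34.9% (others 0 to 3.53%). Naive 1 had 3.94% of Hnrnpu counts on Hnrnpu-206 and the other Naive libraries had 0.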

How the results depend on the processing

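The number of members called in Ag+Costim against Ag, 0 by edgeR, was 5 with DESeq2, 9 with limma voom and sample weights (31.3% of all genes called higher), 2 without Ag 3 and Naive 5, and 0 to 6 when single libraries were left out. The limma voom fit gave Ag 2 and 5 little weight, as stated above. In Ag against Naive the number of members called was 1 without Ag 3 and Naive 5. In Ag+Costim against Naive, 6 became 0 with lane as a term and 2 to 8 without single libraries. For transcript usage in that comparison, 0 became 1 with limma diffSplice (Hnrnpa2b1), against 632 of 7501 genes. With no filter it was 1 (Hnrnpa3), against 285 of 16050 genes. Without single libraries it was 0 to 1, with Hnrnpa3 called without Naive 5, against 163 of 7780 genes. Hnrnpa3 counts lay on either Hnrnpa3-203 or Hnrnpa3-204 in each library, never on both, as given above. With the replicate number as a block, the members called were 0, 0 and 7 in the 3 comparisons, against 0, 1660 and 7833 of 17366 genes. For usage the members called were 0, 0 and 1 (Hnrnpa3), against 21, 20 and 69 of 7501 genes. However, not every pair of same-numbered libraries deviated together, and the replicate numbers also carry the recorded sex.

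Signs turned mostly in Ag against Naive. There limma voom gave −0.00 for Hnrnpa1 (−0.002), −0.15 for Hnrnpa2b1 (−0.146) and −0.09 for Hnrnpf (−0.091). Hnrnpf was −0.02 with DESeq2 (−0.021), −0.005 with RLE factors, −0.07 with library totals (−0.068) and −0.07 with no filter (−0.070). With lane as a term Hnrnph1 was 0.17, Hnrnpl 0.048 and Hnrnpu 0.11. Without Ag 3 and Naive 5, Hnrnpd was 0.25, Hnrnpl 0.065 and Hnrnpu 0.155. Without single libraries the ranges were −0.56 to 0.14 for Hnrnpa3, −0.34 to 0.29 for Hnrnpd, −0.059 to 0.097 for Hnrnpf, −0.22 to 0.12 for Hnrnpl and −0.21 to 0.17 for Hnrnpu. With close copies added Hnrnpa3 was 0.062 there, 0.45 in Ag+Costim against Ag and 0.51 in Ag+Costim against Naive, and limma voom gave 0.007 for it in Ag+Costim against Ag. The cause of these turns was not tested. Of 620 log2 fold changes under alternatives, the other 590 kept their sign.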
